A study of Schizosaccharomyces pombe with 8 samples.

Results

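The 6 genes described here are glucose-repressed genes of fission yeast (Schizosaccharomyces pombe) and regulators of their repression. They are inv1 (SPCC191.11), fbp1 (SPBC1198.14c), ght5 (SPCC1235.14), scr1 (SPBC1D7.02c), rst2 (SPAC6F12.02) and pka1 (SPBC106.10). They were chosen by name for their known roles and were found as 6 of 7022 gene rows and 0 of 5361 intron rows, since none of the 6 genes has an annotated intron. RNA was compared between cwf10-ΔNTE cells (strain OHI408) and wild-type cells (WT, strain OHI246). In cwf10-ΔNTE, residues 2 to 127 are missing from the N-terminus of Cwf10, a spliceosomal GTPase that corresponds to Snu114 of budding yeast. Both strains have mating type h- and carry the alleles ura4-D18 and leu1-32. Their ade6 allele is given as ade6-M21X for cwf10-ΔNTE and as ade6-M210 for WT. Cultures of both were in yeast extract medium at 25 °C, and the glucose content of the medium is not given in the sources used here. Each strain gave 2 poly-A libraries whose cultures grew together and were then handled apart. The p-values therefore measure the spread between these libraries alone, and that spread may be technical.

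Glucose acts on these genes by 2 main routes. In the cAMP route, glucose sensed by the receptor Git3 leads through the G protein subunit Gpa2 to adenylate cyclase (Cyr1), and the cAMP made releases Pka1, the catalytic subunit of protein kinase A, from its regulatory subunit Cgs1. Active Pka1 restrains Rst2, a zinc finger activator that binds stress-starvation response elements in front of fbp1 and of the mating regulator gene ste11. In the other route, Scr1, a zinc finger repressor of the Mig1 type, keeps inv1, fbp1 and ght5 low in glucose, and the AMP-activated kinase Ssp2 acts against Scr1 when glucose runs short. The products of the repressed genes are an extracellular invertase that splits sucrose (Inv1), the fructose-1,6-bisphosphatase of gluconeogenesis (Fbp1) and a high-affinity hexose transporter (Ght5).

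Gene rows held 36186264 and 42593150 reads in the cwf10-ΔNTE libraries and 40857033 and 42802817 in the WT libraries. Intron rows took 0.691% and 0.691% of gene and intron reads in cwf10-ΔNTE, against 0.426% and 0.419% in WT. The deletion was visible in cwf10 itself, whose intron 1 had 0 and 0 exon-exon reads in cwf10-ΔNTE and 98 and 85 in WT. Replicates of a strain differed by more than counting noise, with a chi-square per degree of freedom of 2.94 in cwf10-ΔNTE and 2.40 in WT. Summed levels of the P-cell markers map2 and map3, which would mark cells of the other mating type, were 217 and 222 CPM (counts per 1000000 gene-row reads, TMM-scaled) in cwf10-ΔNTE against 255 and 253 CPM in WT. The map2 row shares 35.3% of its length with ura6 and the map3 row 59.7% with his6. These sums may hold reads of those genes and are no clean measure of such cells. Differences between the strains were tested with edgeR's quasi-likelihood test over all gene rows and called at a Benjamini-Hochberg (BH) adjusted p under 0.05, and each adjusted p given with edgeR's name comes from that fit or its counterparts for intergenic rows, introns and junctions. At this depth and with so little spread between replicates, most gene rows were called: 78.1% in either direction, 39.6% higher and 38.5% lower in cwf10-ΔNTE, with a median absolute log2 fold change of 0.22. The split moved with the scaling: 50.6% of calls were higher here, 63.4% with library totals as the only scaling and 28.0% in the authors' deposited table. Of the 6 genes, 3 were called higher, 2 lower and 1 was not called, so the size of each change says more than its call. In bulk RNA, fewer cells with a transcript and less transcript per cell cannot be told apart.

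All 3 genes that glucose represses were higher in cwf10-ΔNTE, by 1.82-fold for inv1, 1.41-fold for fbp1 and 1.17-fold for ght5. Among all tested gene rows, 39.6% were called higher and 38.5% lower. The rise of ght5 was the size of the median absolute change of all gene rows, and ght5 was not called in the authors' deposited table. Of the regulators, pka1 and rst2 stood at 0.895 and 0.901 of their WT levels and scr1 was not called. The 3 repressed genes did not share 1 size of change. Per kilobase of row, inv1 stood at 1.36 and 1.48 times the level of fbp1 in the cwf10-ΔNTE libraries and at 1.09 and 1.10 times in the WT libraries. Relative to ght5, inv1 stood at 0.854 and 0.833 in cwf10-ΔNTE and at 0.544 and 0.533 in WT, and fbp1 at 0.628 and 0.564 in cwf10-ΔNTE and 0.50 and 0.48 in WT. Within each of these ratios both cwf10-ΔNTE libraries lay above both WT libraries. All 3 stayed in the lower part of the range of levels: averaged over the libraries, 24.6% of tested gene rows had a lower CPM per kilobase than inv1, 19.0% than fbp1 and 36.4% than ght5.

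**Figure D1:**
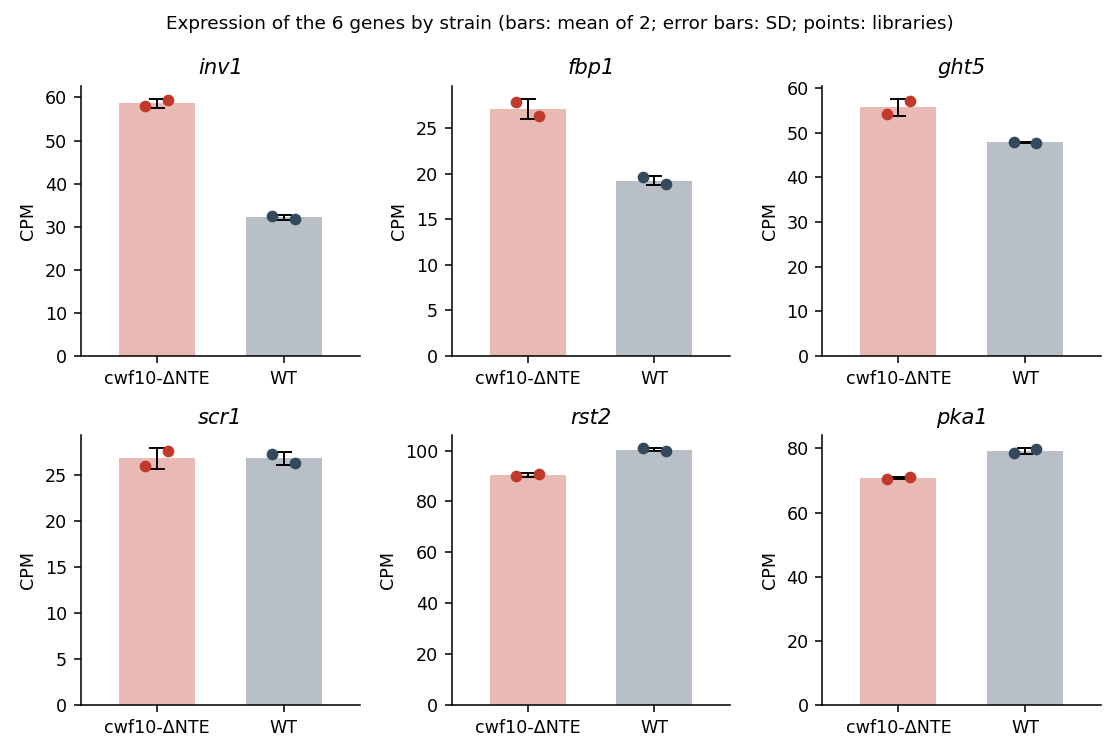
Level of each of the 6 genes in CPM (y axes, each from 0) in cwf10-ΔNTE and WT cells; bars are means of 2 libraries, error bars the SD, and points single libraries. Both cwf10-ΔNTE libraries lie above both WT libraries for inv1, fbp1 and ght5 and below them for rst2 and pka1. The scr1 libraries of the strains overlap. In 88.7% of tested gene rows the libraries of the strains do not overlap.

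The invertase gene inv1 lies on chromosome III at 1723393 to 1726164, on the plus strand, in the coordinates of the deposited table. The searches of its promoter and of the others covered 1000 bases before the start of the gene in RefSeq (assembly ASM294v3), on both strands. For ght5 and pka1 RefSeq gives a leader of 0 bases and the deposited rows begin earlier. Their 1000 bases end at the coding part and may include a leader, so positions are not fully alike across the 6. Leaders that RefSeq does give, among them 872 bases for inv1 and 227 for fbp1, were not searched. The searches looked for CCCCTC (the stress-starvation response element, STREP, bound by Rst2) and TGACGT (the CRE core bound by Atf1-Pcr1). Also sought were CCCCGC and CCCCAC (GC boxes of the Mig1 type, as Scr1 binds). Among 5112 promoters of protein-coding genes, 7.51% hold CCCCTC, 14.9% TGACGT, 2.97% CCCCGC and 8.39% CCCCAC, 29.0% hold at least 1 of them, and no 2 matches in the 6 promoters overlapped. Each of the 6 promoters held at least 1 match, which describes letters and is neither a binding site nor a cause. The inv1 promoter held only TGACGT, 528 to 523 bases before the start; the surrounding 100 bases, shown because they carry its only match, run on the plus strand at chrIII:1722864-1722963, with the match in capitals.
inv1: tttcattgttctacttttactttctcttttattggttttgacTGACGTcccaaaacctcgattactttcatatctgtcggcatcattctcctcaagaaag

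The inv1 row had 2155 and 2600 reads in the cwf10-ΔNTE libraries and 1302 and 1317 in the WT libraries. Scaled, these were 57.9 and 59.4 CPM in cwf10-ΔNTE and 32.6 and 31.8 CPM in WT. The libraries of the strains did not overlap, as in 88.7% of tested gene rows. The gap was many times the spread within either strain. The means were 58.7 ± 1.05 CPM in cwf10-ΔNTE and 32.2 ± 0.558 CPM in WT (SD, n = 2 each). The log2 fold change was 0.87 ± 0.038 (SE; edgeR, BH-adjusted p = 2.38e-17), and 95.4% of tested gene rows had a lower one. The last 67 bases of the row (2.42%) also belong to the non-coding RNA row SPNCRNA.1224, which had 599 and 777 reads in cwf10-ΔNTE and 578 and 522 in WT and was higher by log2 0.33 (edgeR, BH-adjusted p = 1.57e-04). The 516-base row without genes directly before inv1 (1722877 to 1723392), which holds the TGACGT match, had only 19 and 25 reads in cwf10-ΔNTE and 5 and 6 in WT. It was nonetheless called higher, by log2 1.98 ± 0.43 (SE; edgeR, BH-adjusted p = 7.22e-04), where 36.2% of gene-free intergenic rows were called in either direction. This row passed the filter on low counts only through its cwf10-ΔNTE libraries. Without the filter its log2 fold change was 1.98 (edgeR, BH-adjusted p = 8.85e-05).

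The gene fbp1 lies on chromosome II at 197660 to 199474, on the minus strand, in a stretch known for long non-coding transcripts that run through the fbp1 promoter during glucose starvation. Its row lies wholly inside SPNCRNA.1324 (197369 to 200995), which is annotated on the other strand. It also shares 66 bases with fbp1-ot3 (SPNCRNA.1325, 199409 to 200559), an upstream transcript annotated on the same strand. The promoter held CCCCTC 307 to 302 bases before the RefSeq start and TGACGT, on the opposite strand, 940 to 935 bases before it. Both motifs together are in 79 of the 5112 promoters. The stretches around them, shown because they hold the letters that Rst2 and Atf1-Pcr1 are known to bind, run on the minus strand at chrII:199570-199769 and chrII:200250-200349, with the matches in capitals (ACGTCA is TGACGT on the other strand).
fbp1 CCCCTC: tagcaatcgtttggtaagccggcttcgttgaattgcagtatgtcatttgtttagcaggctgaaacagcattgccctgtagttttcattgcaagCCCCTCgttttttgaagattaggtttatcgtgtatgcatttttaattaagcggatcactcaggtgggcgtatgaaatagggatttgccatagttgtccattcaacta
fbp1 TGACGT: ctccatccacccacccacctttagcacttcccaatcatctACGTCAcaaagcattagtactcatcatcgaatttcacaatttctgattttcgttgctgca

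The fbp1 row had 1038 and 1152 reads in the cwf10-ΔNTE libraries and 783 and 781 in the WT libraries, or 27.9 and 26.3 CPM in cwf10-ΔNTE and 19.6 and 18.9 CPM in WT. Both cwf10-ΔNTE libraries lay above both WT libraries, where the strains did not overlap in 88.7% of tested gene rows. The means were 27.1 ± 1.11 CPM in cwf10-ΔNTE and 19.2 ± 0.524 CPM in WT (SD, n = 2 each), a log2 fold change of 0.49 ± 0.053 (SE; edgeR, BH-adjusted p = 3.34e-09). Of tested gene rows, 88.3% had a lower log2 fold change.

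The transcript row before fbp1 was also higher, by less than fbp1. The fbp1-ot3 row had 600 and 821 reads in cwf10-ΔNTE and 570 and 580 in WT, or 16.1 and 18.8 CPM in cwf10-ΔNTE and 14.3 and 14.0 CPM in WT. Its log2 fold change was 0.31 ± 0.069 (SE; edgeR, BH-adjusted p = 2.23e-04), and 0.19 without cwf10-ΔNTE replicate 2 (edgeR, BH-adjusted p = 0.0347). The reads of fbp1-ot3 per read of fbp1 were 0.578 and 0.713 in cwf10-ΔNTE and 0.728 and 0.743 in WT. Both cwf10-ΔNTE ratios lay below both WT ratios, but they were far apart from each other, and the difference between the changes of the 2 rows was not tested. A second upstream transcript, fbp1-ot2 (SPNCRNA.1326), had 14 and 14 reads in cwf10-ΔNTE and 9 and 9 in WT. It was not called (edgeR, BH-adjusted p = 0.159). The fbp1-ot2 row passed the filter on low counts only through its cwf10-ΔNTE libraries. Without the filter it was not called either (edgeR, BH-adjusted p = 0.244).

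The antisense row gave no separate measure of antisense RNA. SPNCRNA.1324 had 1653 and 1984 reads in cwf10-ΔNTE and 1371 and 1370 in WT, and was called higher by log2 0.41 ± 0.040 (SE; edgeR, BH-adjusted p = 4.89e-10). Less the summed reads of fbp1 and fbp1-ot3, the rows it covers, 15 and 11 reads were left in cwf10-ΔNTE and 18 and 9 in WT. The counts thus did not separate strands here, and reads of fbp1 and of fbp1-ot3 cannot be told apart from reads antisense to them.

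**Figure D2:**
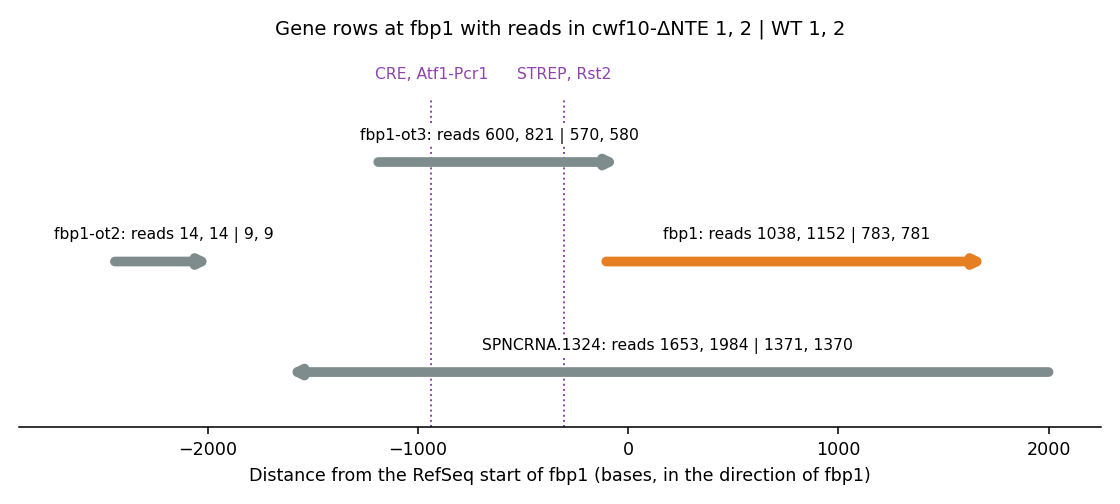
Map of the gene rows at fbp1, to scale, with position as distance in bases from the RefSeq start of fbp1 in its direction (x axis); arrows give the annotated direction, dotted lines the CRE and STREP matches, and the labels the reads of cwf10-ΔNTE 1 and 2, then of WT 1 and 2. The row of fbp1 begins 105 bases before the RefSeq start, both matches lie inside fbp1-ot3 and SPNCRNA.1324, and SPNCRNA.1324 spans fbp1 and fbp1-ot3.

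The hexose transporter gene ght5 lies on chromosome III at 212160 to 214376, on the plus strand, and overlaps no other gene row. Its promoter held CCCCTC 786 to 781 bases and CCCCGC 753 to 748 bases before the RefSeq start, both inside the neighbouring row SPCC1235.18. The 100 bases that carry both, shown because a match to each kind of glucose-related letters lies in them, run on the plus strand at chrIII:211493-211592, with the matches in capitals.
ght5: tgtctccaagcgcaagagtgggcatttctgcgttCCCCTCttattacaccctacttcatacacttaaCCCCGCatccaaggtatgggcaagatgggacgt

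The ght5 row had 2019 and 2495 reads in the cwf10-ΔNTE libraries and 1913 and 1975 in the WT libraries, or 54.3 and 57.0 CPM in cwf10-ΔNTE and 47.9 and 47.7 CPM in WT. The strains did not overlap, as in 88.7% of tested gene rows, and the change was small. The means were 55.6 ± 1.94 CPM in cwf10-ΔNTE and 47.8 ± 0.138 CPM in WT (SD, n = 2 each), and the log2 fold change was 0.22 ± 0.036 (SE; edgeR, BH-adjusted p = 4.10e-06). Its size was that of the median absolute change of all gene rows, and 73.3% of tested gene rows had a lower log2 fold change.

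Reads in front of ght5 went the other way. The 511-base row without genes that ends at the start of the ght5 row (211649 to 212159), in which RefSeq annotates no gene, had 571 and 602 reads in cwf10-ΔNTE and 756 and 737 in WT. Per kilobase these were 30.0 and 26.9 CPM in cwf10-ΔNTE and 37.0 and 34.8 CPM in WT, while ght5 itself had 24.5 and 25.7 CPM per kilobase in cwf10-ΔNTE and 21.6 and 21.5 in WT. The stretch was thus read at least as densely as the gene in all 4 libraries, at 1.23 and 1.05 times the density of ght5 in cwf10-ΔNTE and 1.71 and 1.62 times in WT. RefSeq gives ght5 a leader of 0 bases. Whether the stretch belongs to the ght5 transcript, to a neighbouring one or to neither was not tested. The row was called lower, with a log2 fold change of -0.34 ± 0.068 (SE; edgeR, BH-adjusted p = 3.30e-04), and the difference between its change and that of ght5 was not tested. The row behind ght5 had 90 and 103 reads in cwf10-ΔNTE and 82 and 87 in WT and was not called (edgeR, BH-adjusted p = 0.311).

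**Figure D3:**
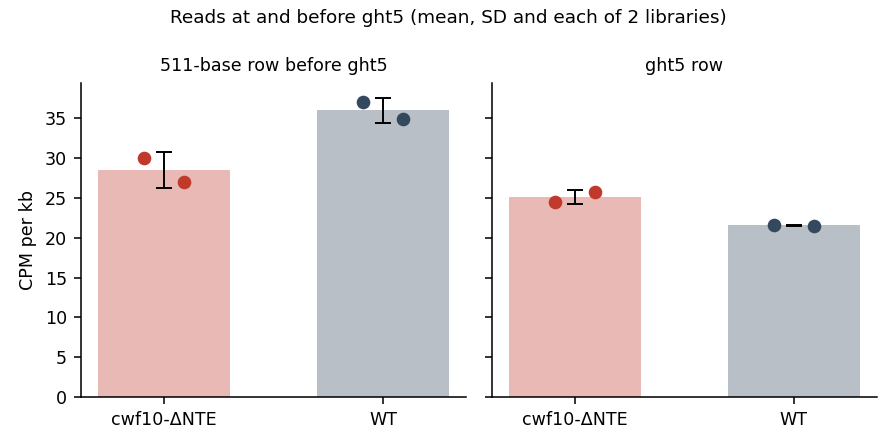
Read density in CPM per kilobase (shared y axis, from 0) of the 511-base gene-free row before ght5 (left) and of the ght5 row (right) in cwf10-ΔNTE and WT cells; bars are means of 2 libraries, error bars the SD, and points single libraries. The cwf10-ΔNTE libraries lie below the WT libraries in the upstream row and above them in the ght5 row.

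Among the regulators, the repressor gene scr1 lies on chromosome II at 1752100 to 1755619, on the plus strand, and overlaps no other gene row. RefSeq gives it a leader of 1496 bases before its coding part, and its promoter held the most matches of the 6. CCCCTC occurred 3 times, 189 to 184, 101 to 96 and 9 to 4 bases before the RefSeq start, and of the 5112 promoters only 6 hold it at least 3 times. CCCCAC, the letters of a Mig1-type box, occurred at 324 to 319 and 314 to 309 bases, and TGACGT at 926 to 921 bases. The 2 stretches with the clustered matches, shown for those repeats, run on the plus strand at chrII:1751733-1751812 and chrII:1751893-1752092, with the matches in capitals.
scr1 CCCCAC: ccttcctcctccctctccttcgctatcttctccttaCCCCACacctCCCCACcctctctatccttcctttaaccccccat
scr1 CCCCTC: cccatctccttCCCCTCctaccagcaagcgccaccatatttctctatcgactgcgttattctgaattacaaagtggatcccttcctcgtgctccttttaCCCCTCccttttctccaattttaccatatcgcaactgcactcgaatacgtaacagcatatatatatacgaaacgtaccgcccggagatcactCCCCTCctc

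The scr1 row had 968 and 1208 reads in the cwf10-ΔNTE libraries and 1089 and 1090 in the WT libraries, or 26.0 and 27.6 CPM in cwf10-ΔNTE and 27.3 and 26.3 CPM in WT. It was the only one of the 6 genes whose libraries overlapped between the strains, whereas 88.7% of tested gene rows did not overlap. The means were 26.8 ± 1.12 CPM in cwf10-ΔNTE and 26.8 ± 0.664 CPM in WT (SD, n = 2 each), with a log2 fold change of 0.004 ± 0.049 (SE; edgeR, BH-adjusted p = 0.945). Its sign changed with the scaling and with the library left out, and it was not called in any setting. Per kilobase scr1 was the lowest of the 6 genes, at 7.61 CPM in cwf10-ΔNTE and 7.61 CPM in WT. The row before it (1751044 to 1752099), which holds no gene of the deposited table but in RefSeq overlaps SPNCRNA.5338, SPNCRNA.5339 and the first bases of scr1, had 7 and 11 reads in cwf10-ΔNTE and 21 and 12 in WT and was not called (edgeR, BH-adjusted p = 0.126). The row behind it had too few reads to be tested, at 3 and 10 in cwf10-ΔNTE and 6 and 7 in WT.

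The activator gene rst2 lies on chromosome I at 1309676 to 1313429, on the plus strand. RefSeq gives it a leader of 1299 bases, and its promoter held 1 match, to CCCCAC, 131 to 126 bases before the RefSeq start. The 100 bases around it, shown for that match to the letters bound by Scr1-type factors, run on the plus strand at chrI:1309501-1309600.
rst2: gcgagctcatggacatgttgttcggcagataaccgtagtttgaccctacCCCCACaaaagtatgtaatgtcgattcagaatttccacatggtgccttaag

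The rst2 row had 3345 and 3980 reads in the cwf10-ΔNTE libraries and 4027 and 4139 in the WT libraries, or 89.9 and 90.9 CPM in cwf10-ΔNTE and 100.8 and 99.9 CPM in WT. The strains did not overlap. The means were 90.4 ± 0.732 CPM in cwf10-ΔNTE and 100.4 ± 0.606 CPM in WT (SD, n = 2 each), 0.901-fold, with a log2 fold change of -0.15 ± 0.026 (SE; edgeR, BH-adjusted p = 1.09e-05). Of tested gene rows, 30.4% had a lower log2 fold change, and in 88.7% the libraries of the strains did not overlap. The last 194 bases of the row (5.17%) are shared with fsv1, a SNARE gene on the other strand that went the opposite way, with 1916 and 2306 reads in cwf10-ΔNTE and 1780 and 1729 in WT and a log2 fold change of 0.27 (edgeR, BH-adjusted p = 4.03e-07). The row before rst2 (1309267 to 1309675), where RefSeq annotates the antisense RNA SPNCRNA.2572, had 11 and 20 reads in cwf10-ΔNTE and 5 and 7 in WT. It passed the filter on low counts only through its cwf10-ΔNTE libraries, and without the filter it was called as well (edgeR, BH-adjusted p = 0.026). With the filter it was called higher by log2 1.36 ± 0.49 (SE; edgeR, BH-adjusted p = 0.0312). That call was lost when any 1 of the 4 libraries was left out (edgeR, BH-adjusted p between 0.0513 and 0.398) and with DESeq2 (adjusted p = 0.274).

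The kinase gene pka1 lies on chromosome II at 396752 to 398957, on the plus strand, and overlaps no other gene row. Its promoter held 1 match, to CCCCTC on the opposite strand, 866 to 861 bases before the RefSeq start. The 80 bases around it, shown as the only match, run on the plus strand at chrII:396102-396181, where the match in capitals reads GAGGGG, the same letters on the other strand.
pka1: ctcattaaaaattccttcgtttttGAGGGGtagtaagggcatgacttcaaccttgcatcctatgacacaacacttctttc

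The pka1 row had 2627 and 3113 reads in the cwf10-ΔNTE libraries and 3136 and 3306 in the WT libraries, or 70.6 and 71.1 CPM in cwf10-ΔNTE and 78.5 and 79.8 CPM in WT. The strains did not overlap. The means were 70.9 ± 0.370 CPM in cwf10-ΔNTE and 79.2 ± 0.941 CPM in WT (SD, n = 2 each), 0.895-fold, with a log2 fold change of -0.16 ± 0.030 (SE; edgeR, BH-adjusted p = 2.27e-05). Of tested gene rows, 29.3% had a lower log2 fold change, and in 88.7% the libraries of the strains did not overlap. Per kilobase pka1 was the highest of the 6 genes, at 32.1 CPM in cwf10-ΔNTE and 35.9 CPM in WT. The ratio of the 2 regulators that were lower overlapped between the strains: pka1 stood at 1.34 and 1.33 times the level of rst2 per kilobase in cwf10-ΔNTE and at 1.33 and 1.36 times in WT. The level of rst2 relative to scr1 was 3.24 and 3.09 in cwf10-ΔNTE and 3.47 and 3.56 in WT. The gene-free row before pka1 (396038 to 396751), where RefSeq annotates the antisense RNA SPNCRNA.4700, had 505 and 627 reads in cwf10-ΔNTE and 612 and 583 in WT and was not called (edgeR, BH-adjusted p = 0.438). The 45 bases behind pka1 were not called either (edgeR, BH-adjusted p = 0.860).

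How far each change stands from 0 depended on the scaling. The median log2 fold change over all tested gene rows was 0.01 here, 0.09 with library totals as the only scaling and -0.13 in the authors' deposited table. In the authors' deposited table inv1 and fbp1 had log2 fold changes of 0.72 (adjusted p = 2.33e-38) and 0.35 (adjusted p = 5.91e-06). The authors' deposited table gave ght5 a log2 fold change of 0.08 (adjusted p = 0.219) and scr1 one of -0.14 (adjusted p = 0.0955). For rst2 and pka1 the authors' deposited table gave -0.29 (adjusted p = 1.11e-11) and -0.30 (adjusted p = 1.17e-10). Less each scaling's own median the 6 genes had nearly the same values, and those of ght5 were 0.21 here, 0.21 with library totals and 0.21 in the authors' deposited table. The authors' comparison differs in its test as well as its scaling, so its lack of a call for ght5 cannot be put down to either alone, and ght5 was called in every alternative run here. With library totals only, rst2 and pka1 had log2 fold changes of -0.07 and -0.08, and both were still called lower (edgeR, BH-adjusted p = 0.0243 and 0.0217).

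Over all tested gene rows, 39.6% were called higher and 38.5% lower, and genes of the pathway around Pka1 were likewise called in both directions. Of 11 genes of the cAMP route other than pka1, 3 were higher, 5 lower and 3 not called, with a median log2 fold change of -0.06. With library totals as the only scaling 5 were higher and 4 lower, and the median was 0.02. The lowest was git3, the glucose receptor gene at the top of the route, at 52.9 ± 0.904 CPM in cwf10-ΔNTE and 93.5 ± 3.25 CPM in WT (SD, n = 2 each). Its libraries held 1946 and 2345 reads in cwf10-ΔNTE and 3644 and 3968 in WT, and its log2 fold change of -0.82 ± 0.032 (SE; edgeR, BH-adjusted p = 1.88e-18) was close in size to that of inv1. The git3 row shares 15.4% of its length with SPNCRNA.1203 on the other strand. The highest was cgs1, the regulatory subunit that holds Pka1 inactive, with 461 and 614 reads in cwf10-ΔNTE and 390 and 444 in WT. It was higher by log2 0.37 ± 0.078 (SE; edgeR, BH-adjusted p = 1.09e-04).

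In the route of AMP-activated kinase, 1 of 4 tested genes was higher, 2 lower and 1 not called. Their median log2 fold change was -0.13, and of all tested gene rows 39.6% were higher and 38.5% lower. The kinase gene ssp2, whose product acts on Scr1, had 7280 and 8495 reads in cwf10-ΔNTE and 7482 and 7705 in WT, with a log2 fold change of 0.06 ± 0.022 (SE; edgeR, BH-adjusted p = 0.0120). That call was lost without either WT library (edgeR, BH-adjusted p = 0.0583 without replicate 1 and 0.0830 without replicate 2) and with DESeq2 (adjusted p = 0.167). The gene cbs2, for a regulatory subunit of the same kinase, had a log2 fold change of -0.25 ± 0.023 (SE; edgeR, BH-adjusted p = 1.45e-10). Of 10 genes for other factors known to act at the fbp1 promoter, 2 were higher, 6 lower and 2 not called. The median of the 10 was -0.09, beside the same shares of 39.6% higher and 38.5% lower over all tested gene rows. With library totals only, 4 of the 10 were higher and 2 lower. Changes in this list were small: the corepressor gene tup12 was the highest at log2 0.09, and sty1, the stress-activated kinase gene, the lowest at -0.22. The sty1 row shares 80.9% of its length with SPNCRNA.622.

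**Figure D4:**
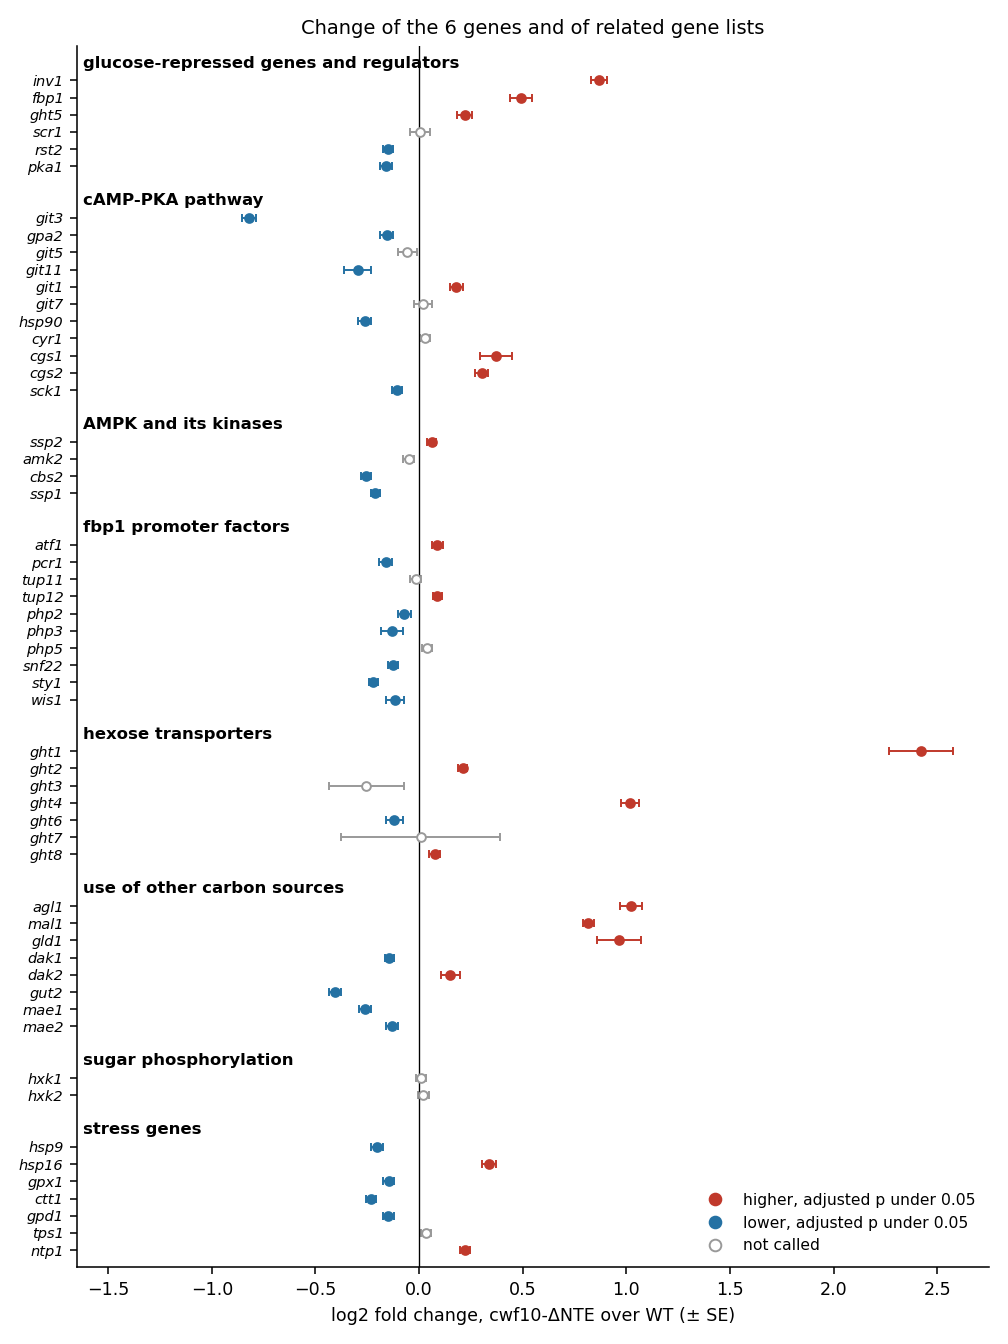
Log2 fold change of cwf10-ΔNTE over WT (x axis) with its standard error for the 6 genes and for 7 lists of related genes; red points were called higher, blue points lower and open points not called at a BH-adjusted p under 0.05 (edgeR quasi-likelihood). The largest rises shown are among hexose transporters and genes for other carbon sources. There ght1 at 2.42, agl1 and ght4 at 1.02 and gld1 at 0.97 rose more than inv1 at 0.87. The largest fall shown is git3 at -0.82.

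Other genes of sugar uptake and use were mixed in direction but held larger rises than the regulators. Of 7 hexose transporter genes other than ght5, 4 were higher, 1 lower and 2 not called, against 39.6% higher and 38.5% lower among all tested gene rows. The median of the 7 was 0.07. The gene ght1 had 195 and 233 reads in cwf10-ΔNTE and 38 and 42 in WT, or 5.28 ± 0.0585 CPM in cwf10-ΔNTE and 0.983 ± 0.0445 CPM in WT (SD, n = 2 each). Its log2 fold change of 2.42 ± 0.15 (SE; edgeR, BH-adjusted p = 5.82e-14) was the largest of any gene in these lists, and SPNCRNA.1121, with which it shares 27.5% of its length, had a log2 fold change of 1.76. The 1 called lower was ght6, at log2 -0.12 ± 0.040 (SE; edgeR, BH-adjusted p = 0.00904). It lies wholly inside SPNCRNA.1118, and its call was lost with library totals as the only scaling (log2 -0.04, edgeR, BH-adjusted p = 0.387). Without WT replicate 1 the change of ght6 was -0.08 and without cwf10-ΔNTE replicate 1 it was -0.11, and neither was called (edgeR, BH-adjusted p = 0.136 and 0.0570), nor was it with DESeq2 (adjusted p = 0.0620).

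Of 8 genes for the use of other carbon sources, 4 were higher and 4 lower, against 39.6% and 38.5% of all tested gene rows. The median of the 8 was 0.01. The highest was agl1, an alpha-glucosidase gene, at 30.1 ± 0.552 CPM in cwf10-ΔNTE and 14.8 ± 0.481 CPM in WT (SD, n = 2 each; log2 fold change 1.02 ± 0.054 SE, edgeR, BH-adjusted p = 1.18e-15). The lowest was gut2, a glycerol-3-phosphate dehydrogenase gene that lies wholly inside SPNCRNA.1235, at log2 -0.41 ± 0.030 (SE; edgeR, BH-adjusted p = 1.43e-12). The hexokinase genes hxk1 and hxk2, which act on glucose once it is inside the cell, had log2 fold changes of 0.010 and 0.020 and were not called (edgeR, BH-adjusted p = 0.726 and 0.486), although both were called higher when only library totals were used for scaling.

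The best known target of Rst2 other than fbp1 was lower. This gene, ste11, which encodes the activator of mating genes, had 444 and 627 reads in cwf10-ΔNTE and 1967 and 1880 in WT. Its level was 13.1 ± 1.69 CPM in cwf10-ΔNTE and 47.3 ± 2.72 CPM in WT (SD, n = 2 each). The log2 fold change of -1.84 ± 0.060 (SE; edgeR, BH-adjusted p = 3.10e-20) had the opposite sign to that of fbp1. Of all tested gene rows, 39.6% were higher and 38.5% lower. Of 7 genes of the general stress response, which shares Atf1 with fbp1, 2 were higher, 4 lower and 1 not called. These 7 had a median of -0.15 (3 higher and 4 lower with library totals only). They ranged from hsp16, a small heat-shock protein gene, at log2 0.34 to ctt1, the catalase gene, at -0.23. The P-cell markers map2 and map3 were lower, with log2 fold changes of -0.23 and -0.17 (edgeR, BH-adjusted p = 4.66e-10 and 7.61e-06), and both rows overlap other genes.

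With no intron of their own, the 6 genes gave no splicing measure, whereas 16 of the listed genes around them hold 35 intron rows. That of dak2 is only 1 base long and was not tested. Intron reads were tested relative to the reads of the host gene, and 21 of 33 tested introns of these lists were higher in cwf10-ΔNTE and 0 lower, where 47.1% of all 5038 tested introns were called higher and 15 were called lower. The median log2 change was 1.21 over the 33 introns and 0.81 over all tested introns. By route, 6 of 11 introns of the cAMP genes, 7 of 11 of the AMP-activated kinase genes and 8 of 11 of the fbp1 promoter factors were called higher. Those called higher include intron 3 of cgs2, with 0 and 0 exon-exon reads in cwf10-ΔNTE and 0 and 1 in WT. They also include intron 2 of cgs2 (4 and 3 in cwf10-ΔNTE, 6 and 0 in WT) and intron 2 of tup11, which overlaps another gene row. Exon-exon reads relative to host reads were lower at 5 of 33 tested junctions and higher at 0, where 19.8% of all tested junctions were lower, with medians of -0.14 for the 33 and -0.15 for all. With DESeq2 1 of the 33 junctions was called lower, against 190 over all junctions in place of 962, and with 1 library left out 2 to 5 were, against 410 to 709 over all. The counts of 0 stayed at 0 with DESeq2 and at an unadjusted edgeR p under 0.05.

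The introns singled out next, chosen after their values were seen, are the 2 with the highest changes in intron reads. Intron 3 of cbs2, on the minus strand at chrI:3807988-3808034, had 20 and 34 intron reads in cwf10-ΔNTE and 7 and 5 in WT, and its exon-exon reads numbered 223 and 229 in cwf10-ΔNTE and 395 and 448 in WT. Relative to host reads its intron reads were higher by log2 2.40 (edgeR, BH-adjusted p = 2.48e-05) and its exon-exon reads were lower, with a log2 change of -0.64 (edgeR, BH-adjusted p = 9.01e-09). Intron 2 of git7, a gene needed for glucose signalling through cAMP, lies on the minus strand at chrII:865245-865287 and had 26 and 45 intron reads in cwf10-ΔNTE and 7 and 7 in WT. Its exon-exon reads numbered 41 and 35 in cwf10-ΔNTE and 70 and 76 in WT, with log2 changes of 2.31 for intron reads and -0.95 for exon-exon reads (edgeR, BH-adjusted p = 1.74e-05 and 2.18e-04). The change in exon-exon reads of git7 was not called with DESeq2 (adjusted p = 0.0880). The git7 row as a whole was not called, at 38.9 ± 2.05 CPM in cwf10-ΔNTE and 38.3 ± 1.36 CPM in WT (SD, n = 2 each). Both intron sequences are shown 5′ to 3′ because they carry these changes, with the bases at the 5′ and 3′ splice sites in capitals.
cbs2 intron 3: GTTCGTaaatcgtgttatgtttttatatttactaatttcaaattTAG
git7 intron 2: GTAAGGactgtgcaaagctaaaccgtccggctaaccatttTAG

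**Figure D5:**
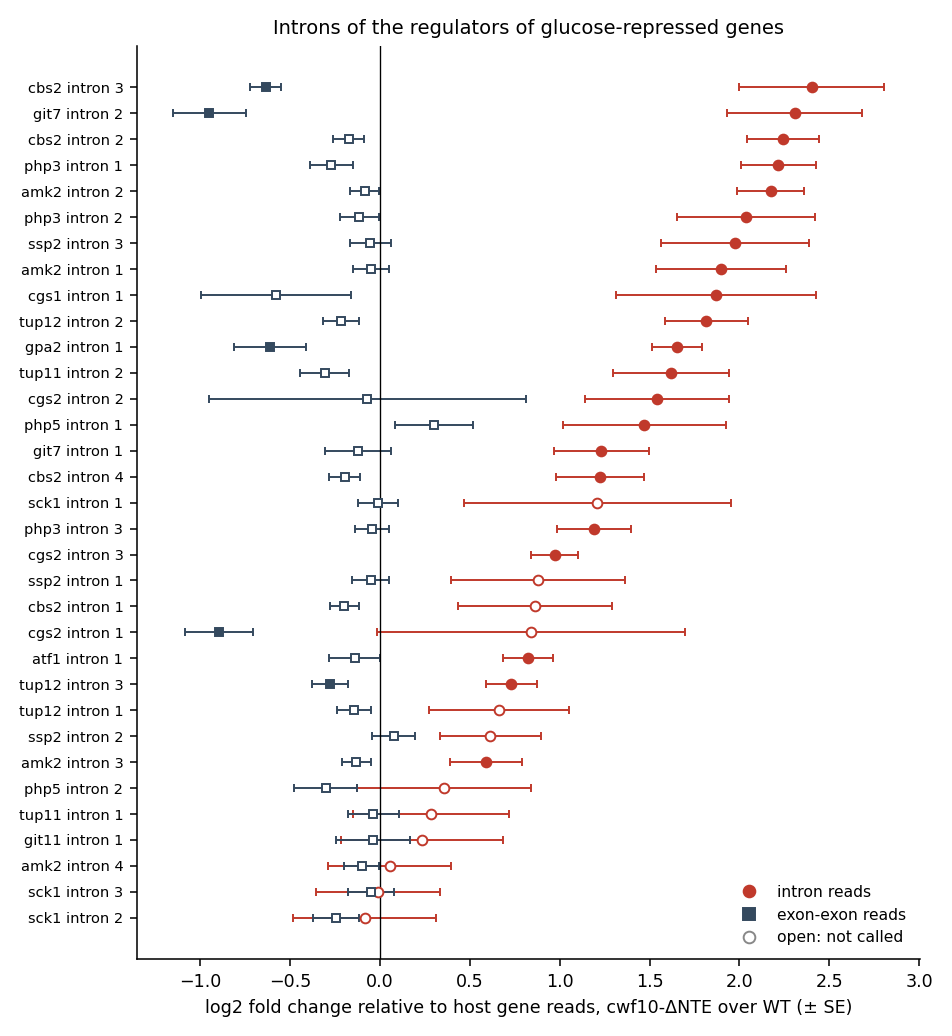
Log2 change of cwf10-ΔNTE over WT (x axis) with its standard error for 33 introns of the listed genes, for intron reads (red circles) and, where tested, exon-exon reads (dark squares), each relative to reads of the host gene; filled symbols were called at a BH-adjusted p under 0.05 (edgeR quasi-likelihood). Intron reads were higher for 21 introns, with cbs2 intron 3 at 2.40 and git7 intron 2 at 2.31 at the top, and exon-exon reads were lower at 5 junctions.

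The genes whose values across the 4 libraries were most like each of the 6 were found among 1619 protein-coding genes (1618 for a gene that is itself among them) that overlap no other row and average at least 5 CPM. Likeness was the Euclidean distance between log2 CPM values centred on each gene's mean over the 4 libraries. Nearest to inv1 were SPCPB1C11.03 (distance 0.0345) and aes1 (0.0444), with log2 fold changes of 0.84 and 0.87. Nearest to fbp1 were rcn1 (0.0305) and SPAC1399.01c (0.0499), and nearest to ght5 were tbp1 (0.0140) and nrg1 (0.0164). For scr1 they were mpe1 (0.0135) and SPAC926.06c (0.0203). For rst2 they were gmh5 (0.00611) and SPCC553.12c (0.0132), and for pka1 they were sec26 (0.00874) and SPBC27B12.12c (0.0101). Both distances were smallest for rst2 and pka1 and largest for inv1 and fbp1, with ght5 and scr1 between. With 4 libraries such likeness is a description of these samples.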

How the data were processed

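The authors deposited 1 table of raw read counts per gene, intron and intergenic row, per the file headers, and only first reads were used, per the labels. CASAVA 1.8.2 and Bowtie 0.12.7 are named, without roles, in the submitters' processing notes. No source used here gives the genome build or the counting rules. Chromosome I has the same length, 5579133 bases, in the table and in ASM294v3, and 98.7% of 5358 nuclear introns read GT to AG in ASM294v3. The kit was stranded per the labels, but the counts at fbp1 do not separate strands. The deposited log2 fold changes and adjusted p-values come from DESeq, per the file headers. Exon-exon counts were recovered as whole numbers (within 0.001) from the log2 splicing efficiencies that the authors deposited. Row lengths are the deposited widths in bases, another column of the file. Per-sample columns not used numbered 6.

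Tests used edgeR 4.0.16 (quasi-likelihood, filterByExpr, TMM) in R 4.3.3 on all rows, with BH adjustment and a threshold of 0.05. CPM are TMM-scaled, SD is over 2 libraries, and SE is the log2 fold change over the square root of F. Intron and exon-exon reads had the log of host reads plus 1 as offset, where they summed to at least 10 and each library had at least 50 host reads. Of 7022 gene rows 6844 matched RefSeq symbols, and 4723 overlap another row. Intergenic intervals without genes, 3584 in all, were each used once. All 6 genes and 7 of the 8 gene-free rows beside them passed the filter on low counts. Tests were also run on simulated data in which few features changed, unlike here, so that run does not show how they behave in these data. The intron tests planned for the 6 genes had no rows and were run for the related genes in the lists. One listed gene, ppk34, matched no row.

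The 6 genes, lists and tests were chosen with earlier results of these data known. Named are the 6 genes, rows overlapping them, the highest and lowest called gene of each list, all genes of lists with at most 3, and the 2 genes nearest in pattern to each of the 6. Replicate numbers were taken to name libraries only: the deviations of same-numbered libraries had a correlation of 0.0249. Alternatives were DESeq2 1.42.0, other scalings and filters, a replicate block and leaving out each library.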

Additional observations from a re-analysis of the deposited data

How the results depend on the processing

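Of the 6 genes, 5 were called under TMM, DESeq2 size factors, library totals, no filter, DESeq2 and the replicate block (count of calls 5), and without any single library. Of all tested gene rows 78.1% were called under TMM. Calls over all rows numbered 5104 under TMM, 4355 with DESeq2 and 5127 with library totals, so keeping a call is not particular to the 6 genes. In a fit of only rows without overlap, 3 of the 6 genes remained and 2 of them were called, with 1443 gene rows called in all. The share of tested rows called in that fit is not given here. The log2 fold change of scr1 turned to -0.00589 with DESeq2 and -0.00326 with DESeq2 size factors, and ran between -0.0422 and 0.0428 with 1 library left out, below 0 without WT replicate 2 (-0.0205) or cwf10-ΔNTE replicate 2 (-0.0422). With 1 library left out, that of hxk1 ran between -0.00715 (without WT replicate 1) and 0.0237, and that of the 45-base row behind pka1 between -0.0932 and 0.236, below 0 without WT replicate 2 (-0.0570) or cwf10-ΔNTE replicate 2. With library totals hxk1 and hxk2 were called higher (log2 0.09 and 0.10), as was hxk1 among rows without overlap (0.05). Library totals also moved small called changes by over 1.5 times, to 0.14 for ssp2, 0.17 for tup12, -0.14 for sty1, -0.15 for ctt1, -0.15 for map2 and -0.09 for map3. With DESeq2 the counts were 1125 introns higher, 190 junctions lower, 1 listed junction lower and 266 gene-free rows called. Leaving out 1 library gave 1515 to 2102 introns higher, 410 to 709 junctions lower and 2 to 5 listed junctions lower. The cause was not tested. Same-numbered libraries shared only a number, the replicate block left 1 residual degree of freedom, and among the single genes, rows and introns recomputed it ended 1 call, of the row before rst2 (edgeR, BH-adjusted p = 0.0545). Of 342 recomputed values of single genes, of rows beside the 6 genes and of the 2 named introns, 318 kept direction and call, 14 lost the call, 3 gained it and 7 turned. With 2 libraries a strain, grown together, small changes pass the test and biological spread is unknown.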
